A study of Homo sapiens with 114 samples.

Results

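The genes described here are 31 heat shock and chaperone genes, taken as a list from the 19775 genes of the array table. All are of the cytosol or the mitochondrion except SERPINH1, of the endoplasmic reticulum. The 31 genes were followed in HK-2, an immortalized line of epithelial cells from the human proximal tubule of the kidney. The cells were treated with 9 compounds that the labels give by abbreviation. RNA was read on Affymetrix arrays, in 38 groups of 3 arrays, of which 26 were treated and 12 were controls. CdCl, Di, CsA, Fk and Ra each had 1 dose and were sampled at 12 h and 48 h. Kbr, Nnm and Aa had a low and a high dose, sampled at 24 h and 48 h, and Ota a low and a high dose, sampled at 24 h and 72 h. One set of control cultures served CdCl and Di, another Kbr and Nnm, and another Fk and Ra. Cells were seeded the day before treatment and treated near confluence, and all control cultures received the vehicle. The labels call the 3 arrays of a group biological replicates of this 1 line. They do not say how the cultures were separated, so the p-values measure the spread between these samples, which may be technical. The amounts behind "high" and "low" were not given, and doses were not matched between compounds.

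Heat shock proteins are chaperones, which hold, refold or pass on unfolded proteins. When unfolded proteins accumulate, the transcription factor HSF1 is released from chaperones, forms trimers and switches on genes whose promoters carry inverted repeats of the letters nGAAn. HSP70 proteins bind and release clients with the help of J-domain proteins, which deliver clients, and of HSP110 and BAG proteins, which exchange the nucleotide. HSP90 with its cochaperones matures kinases and steroid receptors, small heat shock proteins keep clients from aggregating, and HSP60 with HSP10 folds proteins inside mitochondria. In the kidney, HSP70 and HSP27 are known to rise in tubule cells after ischemia and after heavy metal exposure.

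Of the 31 genes, 26 had a probe set that carries their symbol alone, and each was represented by the brightest such set. HSPA1A, HSPA1B, HSPA8 and TCP1 were read only by probe sets that carry several symbols, and these are given as shared probe sets. AHSA1, an activator of the HSP90 ATPase, had no probe set in the annotation used here. In every control family, 23 of the genes passed the low-level filter, a log2 value above 4 on at least 3 arrays. HSPA6 and HSPA1L passed it in the CdCl and Di family alone, through the CdCl arrays, so they had to differ there. DNAJA4, a J-domain protein, passed it in the Ota family alone and was not called in any of its 4 comparisons with control by limma, where its smallest unadjusted p was 0.232.

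The 44 promoter windows of RefSeq (GRCh38.p14, each from upstream of a transcript start to just inside the transcript) that matched 29 of the 31 genes were searched for the heat shock letters. The letters GAANNTTC or TTCNNGAA, which read the same on both strands, stood in a window of 21 of the 29 genes, against 16.2% of all 27305 genes in the promoter table. A longer form, in which the repeat goes on by 1 more unit (NNGAA after GAANNTTC, or NNTTC after TTCNNGAA, searched on both strands and containing the shorter form), stood in 9 of the 29 genes, against 0.608% of all genes. Those 9 were HSPA6, HSPA8, HSPD1, HSP90AA1, HSP90AB1, DNAJA1, DNAJB6, CHORDC1 and SERPINH1. The windows of BAG3, HSPH1, HSPA2, HSPA4, HSPE1, PTGES3, CACYBP and AHSA1 held neither form, which says only that these letters are not in these windows. The windows of 6 genes are shown because these genes carry the main contrasts below, with every match in capitals and read 5′ to 3′ on the strand of the gene. For DNAJB1 the window with the most matches of its 3 windows is given, and HSPA2 is given as the member that was lower with CdCl.
HSPA6, chr1:161524290-161524589, plus strand: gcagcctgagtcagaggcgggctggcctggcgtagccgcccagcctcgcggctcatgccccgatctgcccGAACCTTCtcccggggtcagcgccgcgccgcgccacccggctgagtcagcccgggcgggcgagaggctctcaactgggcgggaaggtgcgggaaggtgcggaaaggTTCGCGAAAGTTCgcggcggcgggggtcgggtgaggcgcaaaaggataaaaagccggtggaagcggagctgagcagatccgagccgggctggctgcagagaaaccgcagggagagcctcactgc
HSPA1A, chr6:31815293-31815592, plus strand: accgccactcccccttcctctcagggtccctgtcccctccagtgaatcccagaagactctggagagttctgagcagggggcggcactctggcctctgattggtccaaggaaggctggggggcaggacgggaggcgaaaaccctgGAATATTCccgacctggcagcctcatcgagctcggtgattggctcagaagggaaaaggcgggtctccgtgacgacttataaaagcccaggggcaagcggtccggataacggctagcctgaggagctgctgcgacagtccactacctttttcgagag
CHORDC1, chr11:90223000-90223299, minus strand: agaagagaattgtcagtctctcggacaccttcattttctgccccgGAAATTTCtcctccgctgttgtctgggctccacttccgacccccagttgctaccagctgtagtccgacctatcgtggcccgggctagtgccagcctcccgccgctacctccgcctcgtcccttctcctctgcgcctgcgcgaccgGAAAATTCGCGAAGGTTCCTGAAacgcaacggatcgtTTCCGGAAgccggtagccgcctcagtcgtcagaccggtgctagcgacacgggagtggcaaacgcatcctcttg
DNAJB1, chr19:14518348-14518647, minus strand: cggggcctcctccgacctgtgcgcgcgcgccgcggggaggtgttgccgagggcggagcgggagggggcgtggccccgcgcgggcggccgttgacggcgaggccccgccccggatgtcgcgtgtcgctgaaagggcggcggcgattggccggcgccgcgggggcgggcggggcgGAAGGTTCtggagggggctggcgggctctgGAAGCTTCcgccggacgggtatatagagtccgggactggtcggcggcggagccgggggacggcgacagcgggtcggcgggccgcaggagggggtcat
DNAJB6, chr7:157336754-157337053, plus strand: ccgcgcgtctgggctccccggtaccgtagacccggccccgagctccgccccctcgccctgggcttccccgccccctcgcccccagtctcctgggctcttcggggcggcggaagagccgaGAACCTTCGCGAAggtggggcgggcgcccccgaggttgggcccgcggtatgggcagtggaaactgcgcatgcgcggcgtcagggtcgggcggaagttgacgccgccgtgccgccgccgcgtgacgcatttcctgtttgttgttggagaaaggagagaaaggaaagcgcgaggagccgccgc
HSPA2, chr14:64540491-64540790, plus strand: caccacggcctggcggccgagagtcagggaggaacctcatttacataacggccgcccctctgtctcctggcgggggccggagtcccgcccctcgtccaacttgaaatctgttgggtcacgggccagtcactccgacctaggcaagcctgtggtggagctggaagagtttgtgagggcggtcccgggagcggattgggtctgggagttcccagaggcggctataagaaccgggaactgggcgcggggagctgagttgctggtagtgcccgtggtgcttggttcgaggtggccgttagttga
The CHORDC1 window held 3 overlapping long forms, the HSPA6 and DNAJB6 windows 1 each, the DNAJB1 and HSPA1A windows only the shorter form and the HSPA2 window none.

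The Ota high 24 h arrays and 1 Ra 48 h array were dimmer than the arrays they are compared with. The upper quartile of the log2 values was 6.32 to 6.59 on the Ota high 24 h arrays, against 6.97 to 7.08 in their controls, and 1 Ra 48 h array lay at 6.09. Of the epithelial markers, KRT8, KRT18, KRT19, EPCAM and CDH1 had mean log2 values above 4 in all 38 groups, while the endothelial and leukocyte markers stayed below it. Of 7 proximal tubule markers, GGT1 alone exceeded 4, in 1 group, so the labelled origin is not visible in them. COL1A1 exceeded 4 in all groups while COL3A1 and PDGFRB did not. In bulk RNA of this kind, fewer cells of a type and less RNA per cell cannot be told apart.

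All changes below are log2 differences of the treated mean from the control mean at the same time (n = 3 arrays in each), ± SE, with limma p-values adjusted over all genes tested. A gene is said to rise or fall when its adjusted p is under 0.05.

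CdCl at 12 h gave the most calls among these genes of the 26 treated groups. Of 25 tested, 22 rose, 1 fell and 2 were not called, while among all 11045 genes tested with CdCl at 12 h 14.5% rose and 34.3% fell. Among the 23 genes that passed the filter in every family, 20 rose and 12 of them at least 2-fold, which held for 4.44% of all genes. Their median change was 1.01, against −0.17 for all genes tested. The upper quartile was 6.86 to 6.94 on the CdCl arrays and 6.98 to 7.06 on the controls. With quantile normalization the counts were again 22 and 1. Here and below, the shares of all genes with that normalization were not counted. The difference between the 3′ and 5′ ACTB probe sets, a sign of RNA quality, averaged 1.76 with CdCl, 1.43 with Di and 1.95 in controls at 12 h, and its part in the results was not tested.

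**Figure D1:**
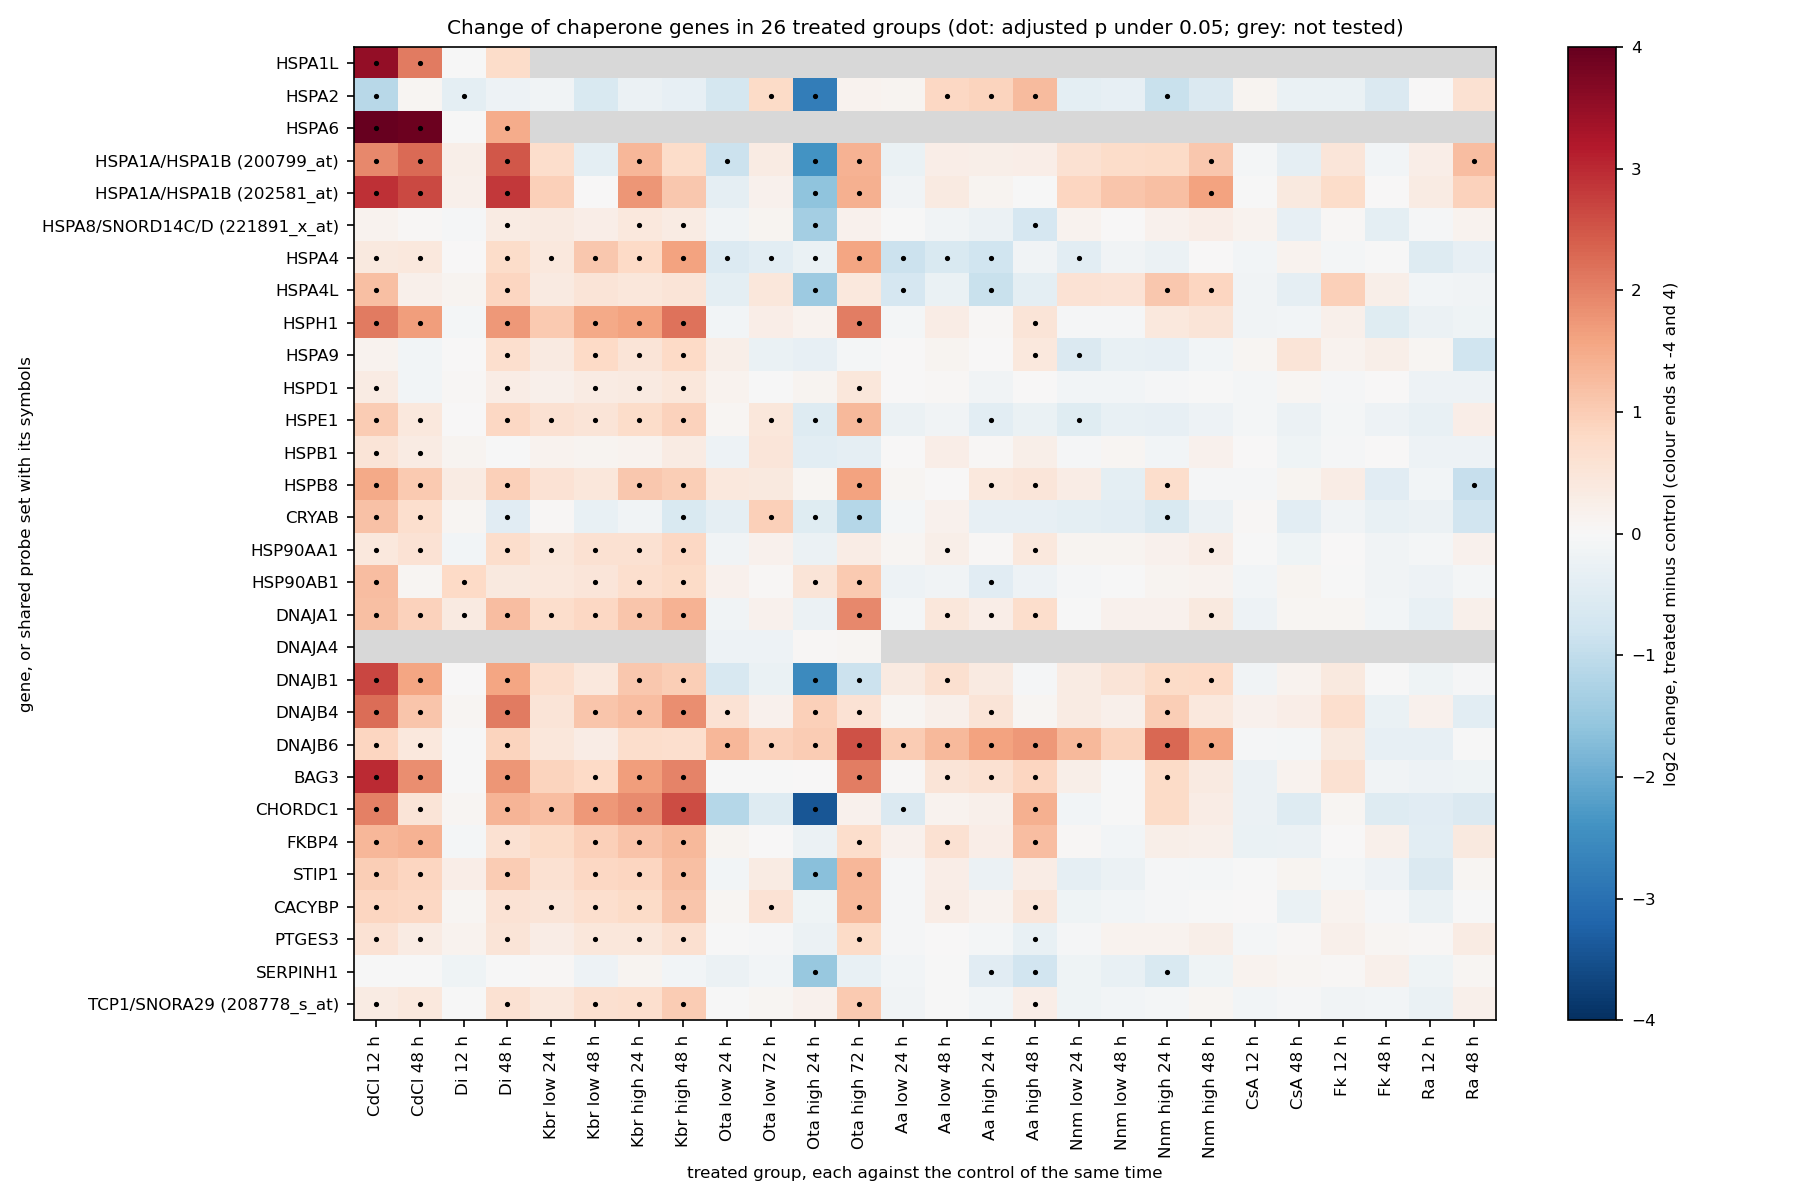
Log2 change of each tested chaperone gene, and of 4 shared probe sets, in the 26 treated groups against the control of the same time; genes run down by role, treated groups run across, red is higher and blue lower in the treated group, a dot marks adjusted p under 0.05 and grey marks genes not tested. The CdCl 12 h column has dots at 23 of its 25 tested genes, the Di 12 h column has 3 dots, and the Ota high 24 h column has 9 genes lower.

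Among the HSP70 genes, HSPA6 and HSPA1L rose and HSPA2 fell. HSPA6, a strictly stress-inducible HSP70 that rodents lack, had log2 values of 10.69, 10.83 and 10.61 on the CdCl 12 h arrays, against 2.83, 2.86 and 2.90 on the controls, a difference of 7.85 ± 0.373 (adjusted p = 4.68e-10). The controls lay below the filter level, so this is a distance on the array scale and not a fold of transcripts. A second HSPA6 probe set differed by 8.94 ± 0.2 (adjusted p = 2.24e-13). HSPA1L, an HSP70 gene known from testis that lies beside HSPA1A, had 5.67, 6.13 and 6.55 with CdCl, against 2.84, 2.50 and 2.49 in controls, also from below the filter level (3.51 ± 0.377, adjusted p = 3.47e-06). In both genes every CdCl array lay far above every control array. HSPA2, another HSP70 best known from the testis, was the 1 gene that fell, with 8.53, 8.54 and 8.65 with CdCl against 9.56, 9.86 and 9.66 in controls (−1.12 ± 0.106, adjusted p = 1.02e-06).

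The classical inducible HSP70 genes HSPA1A and HSPA1B are nearly identical and cannot be told apart on this array. The brighter of their shared probe sets had 14.49, 14.53 and 14.63 with CdCl at 12 h, against 12.54, 12.85 and 12.48 in controls (1.92 ± 0.116, adjusted p = 1.15e-08 in a fit over all 23113 probe sets that passed the filter). Their other shared set had 12.07, 12.08 and 12.17 with CdCl, against 9.09, 9.21 and 9.22 (2.94 ± 0.108, adjusted p = 4.84e-11). Both sets therefore started from high control values and lay higher on every CdCl array. A set that HSPA1L shares with them rose by 3.07. HSPA8, the constitutive HSP70 of the cytosol, shares its 4 sets with 2 small nucleolar RNA genes of its introns. These differed by 0.15 to 0.47, and 2 of the 4 were called, at 0.21 (adjusted p = 0.0344) and 0.47 (adjusted p = 0.000102). In the fit by probe set, 16.6% of all sets rose and 25.7% fell with CdCl at 12 h.

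The partners of HSP70 rose with it. BAG3, which exchanges the nucleotide of HSP70 and links it to small heat shock proteins and autophagy, had 12.63, 12.82 and 12.76 with CdCl, against 9.64, 9.74 and 9.85 in controls, a 7.96-fold difference (2.99 ± 0.0924, adjusted p = 3.85e-12). DNAJB1, the J-domain partner of inducible HSP70, had 12.54, 12.64 and 12.67 with CdCl, against 9.93, 9.96 and 9.96 (2.66 ± 0.0954, adjusted p = 2.28e-11). DNAJB4, a close relative of DNAJB1, had 11.52, 11.59 and 11.84 with CdCl, against 9.53, 9.49 and 9.25 (2.23 ± 0.176, adjusted p = 1.62e-07). For these 3 genes the lowest CdCl array was more than 1 log2 unit above the highest control. DNAJA1, a cytosolic J-domain protein, had 13.62, 13.67 and 13.72 with CdCl, against 12.46, 12.45 and 12.46 (1.21 ± 0.0781, adjusted p = 1.55e-08). DNAJB6, known for holding polyglutamine proteins in solution, rose by 0.85 (adjusted p = 0.000502).

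All 3 HSP110 genes, which act as exchange factors of HSP70, rose. HSPH1, the inducible one, had 13.21, 13.26 and 13.39 with CdCl, against 11.20, 11.25 and 11.21 in controls (2.06 ± 0.0856, adjusted p = 1.06e-10). HSPA4L had 10.00, 10.14 and 10.24, against 8.95, 9.01 and 8.85 (1.19 ± 0.126, adjusted p = 3.08e-06), and HSPA4 rose by 0.38.

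Both HSP90 genes and all 5 tested HSP90 cochaperones rose. CHORDC1, a zinc-binding HSP90 partner, had 12.01, 12.16 and 12.55 with CdCl, against 10.23, 10.31 and 10.12 in controls, a 4.06-fold difference (2.02 ± 0.2, adjusted p = 1.59e-06). FKBP4, an immunophilin of steroid receptor complexes, had 10.50, 10.58 and 10.59 with CdCl, against 9.12, 9.31 and 9.23 (1.34 ± 0.111, adjusted p = 2.51e-07). HSP90AB1, the constitutive HSP90, had 13.78, 13.84 and 13.89 with CdCl, against more scattered controls at 13.16, 12.02 and 12.59 (1.25 ± 0.193, adjusted p = 9.73e-05). In all 3 genes the treated and control arrays did not overlap. STIP1, which joins HSP70 to HSP90, rose by 0.98, CACYBP, a ubiquitin ligase adaptor with an HSP90-binding fold, by 0.86, and PTGES3, the p23 cochaperone, by 0.58. HSP90AA1, the inducible HSP90, rose by 0.43.

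The small heat shock genes rose as a group of 3. HSPB8, a partner of BAG3, had 11.53, 11.51 and 11.62 with CdCl, against 10.10, 10.13 and 9.86 in controls (1.52 ± 0.12, adjusted p = 1.61e-07). CRYAB, the alpha B-crystallin, had 12.96, 12.89 and 12.82, against 11.75, 11.66 and 11.72 (1.18 ± 0.0725, adjusted p = 9.47e-09), and HSPB1, which encodes HSP27, rose by 0.53. Of the mitochondrial genes, HSPE1, which encodes HSP10, had 13.82, 13.74 and 13.92, against 12.83, 12.83 and 12.78 (1.01 ± 0.14, adjusted p = 3.83e-05). Its HSP60 partner HSPD1 rose by 0.32, and the mitochondrial HSP70 gene HSPA9 differed by 0.16 (adjusted p = 0.123). SERPINH1, the collagen chaperone of the endoplasmic reticulum, differed by −0.02 (adjusted p = 0.884).

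At 48 h with CdCl, 19 of 25 genes rose and 6 were not called, while 22.9% of all genes rose and 23.5% fell. Over the 23 genes 17 rose, and the median was 0.53, against −0.02 for all genes. HSPA6 had 6.67, 6.47 and 7.21 with CdCl, against 2.91, 2.81 and 2.86 in controls (3.92 ± 0.373, adjusted p = 6.78e-07). HSPA1L had 4.72, 3.62 and 5.36, against 2.49, 2.47 and 2.48 (2.09 ± 0.377, adjusted p = 0.000337). BAG3 had 10.66, 10.56 and 10.70, against 8.75, 8.77 and 8.78 (1.87 ± 0.0924, adjusted p = 7.13e-10). These 3 genes still lay above every control array. HSPH1 rose by 1.67, DNAJB1 by 1.56, FKBP4 by 1.39, DNAJB4 by 1.11 and HSPB8 by 1.05. The arrays overlapped for HSPE1 (0.42, adjusted p = 0.0241) and DNAJB6 (0.41, adjusted p = 0.048). CHORDC1 rose by 0.53 (adjusted p = 0.0421), its lowest CdCl array just above the highest control.

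The log2 change with CdCl was lower at 48 h than at 12 h for 12 of 25 genes and higher for 1, tested as the difference of the 2 changes, while 9.34% of all genes had a lower and 21.1% a higher value in that test. Over the 23 genes 11 had a lower and 1 a higher value, and the median of this difference was −0.39, against 0.13 for all genes. For HSPA6 the difference was −3.92 ± 0.528 (adjusted p = 8.89e-05). CHORDC1 had 10.76, 10.15 and 10.62 at 48 h, against 10.09, 10.11 and 9.74 in its controls, and its difference between times was −1.49 ± 0.283 (adjusted p = 0.00118). For HSP90AB1 the difference was −1.17 ± 0.272 (adjusted p = 0.00463), for DNAJB4 −1.12 ± 0.249 (adjusted p = 0.00344) and for BAG3 −1.12 ± 0.131 (adjusted p = 2.85e-05). The CdCl arrays of HSP90AB1 averaged 13.84 at 12 h and 13.34 at 48 h, so part of its difference lies in its controls, which were scattered at 12 h. HSPA2 went the other way, since its CdCl arrays at 48 h (7.52, 7.48 and 7.88) met their controls (7.50, 7.53 and 7.60), a difference of 1.20 ± 0.15 from 12 h (adjusted p = 4.83e-05). The HSPA2 controls at 48 h themselves lay below those at 12 h.

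Not every gene declined. Between the times the differences of FKBP4 (0.05), STIP1 (−0.11), CACYBP (−0.03), HSP90AA1 (0.15) and HSPA4 (0.04) were not called. The HSPA1A and HSPA1B sets, with changes of 2.27 and 2.64 at 48 h, differed between times by 0.35 (adjusted p = 0.138) and −0.30 (adjusted p = 0.177).

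**Figure D2:**
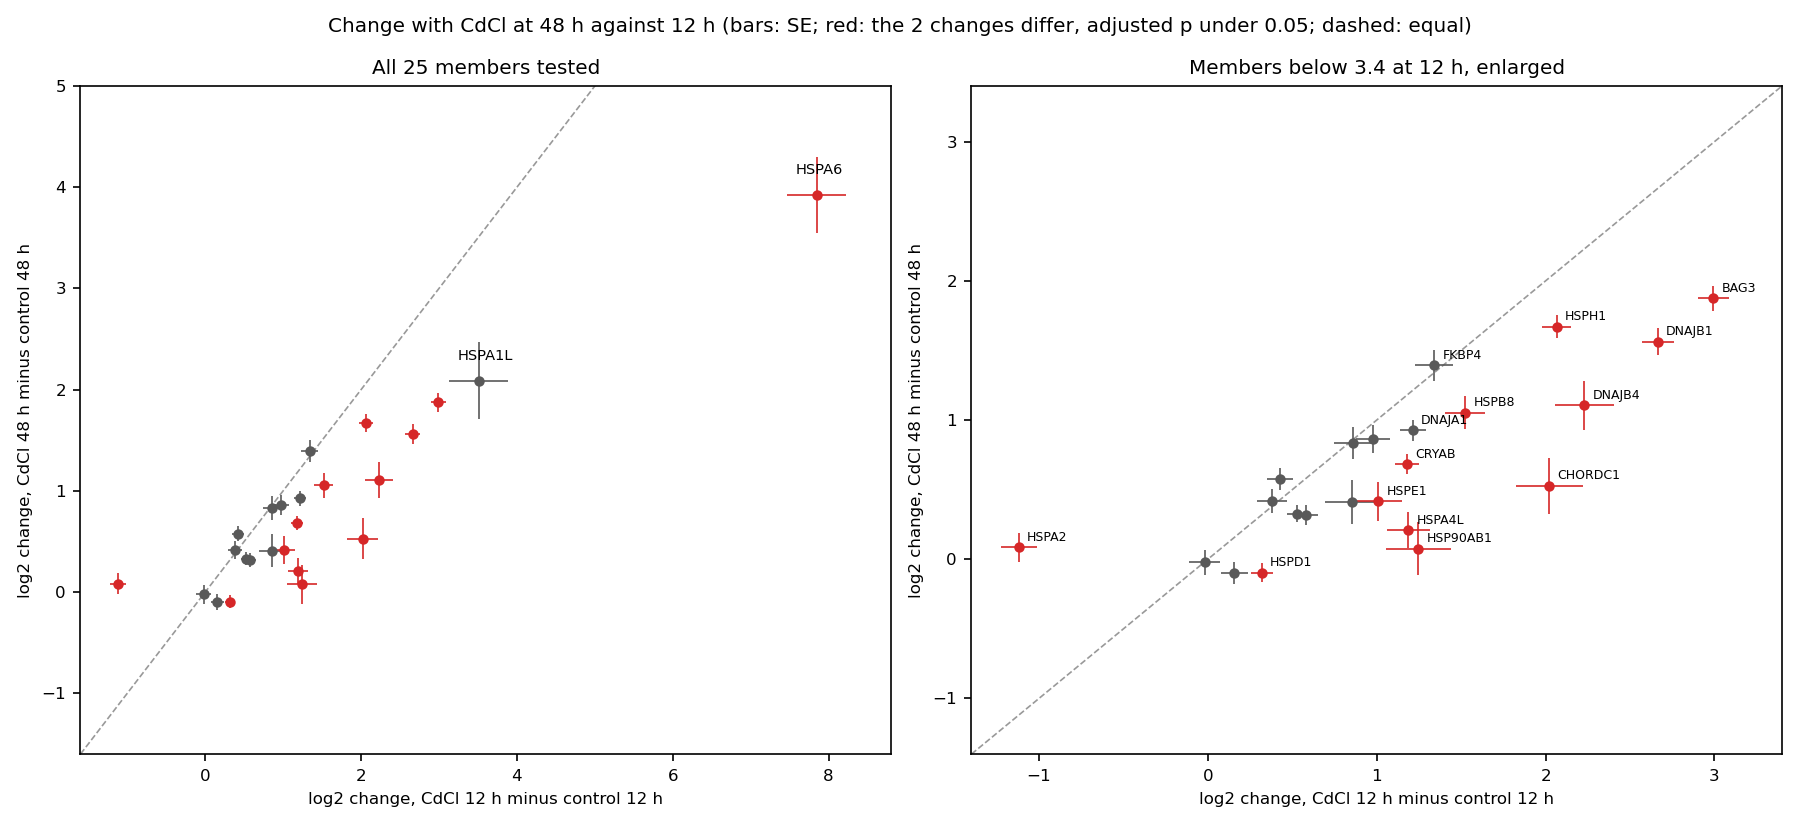
Log2 change with CdCl at 48 h (vertical) against 12 h (horizontal) for the 25 tested chaperone genes, with SE bars; the right panel enlarges the genes below 3.4 at 12 h, the dashed line marks equal change and red marks genes whose 2 changes differed at adjusted p under 0.05. Of the 13 red genes 12 lie below the line, HSPA6 furthest with 7.85 and 3.92, and HSPA2 alone lies above it.

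Di, the compound that shared its control cultures with CdCl, differed from it by time. At 12 h, 2 genes rose and 1 fell of 25, while 3.61% of all genes rose and 8.23% fell. DNAJA1 had 12.68, 12.85 and 12.92 with Di, against 12.46, 12.45 and 12.46 in controls (0.36 ± 0.0781, adjusted p = 0.00992). HSP90AB1 had 13.56, 13.22 and 13.39, against 13.16, 12.02 and 12.59 (0.79 ± 0.193, adjusted p = 0.0174), and without the second control array it was 0.51 (adjusted p = 0.0518). HSPA2 had 9.34, 9.32 and 9.27, against 9.56, 9.86 and 9.66 (−0.39 ± 0.106, adjusted p = 0.0295), and its adjusted p was over 0.05 without any 1 of 5 of the 6 arrays. HSPA6 stayed at 2.83, 2.86 and 2.83 with Di, BAG3 differed by −0.00 and DNAJB1 by 0.01.

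The direct comparison of CdCl with Di at 12 h, in which the shared controls drop out, had 21 of 25 genes higher and 1 lower with CdCl, while 15.2% of all genes were higher and 25.9% lower. HSPA6 and HSPA1L passed the filter through the CdCl arrays, so they had to differ and their p-values add no support. Over the 23 genes that passed it in every family, 19 were higher and 1 lower. HSPA6 was higher with CdCl by 7.87 ± 0.373 (adjusted p = 5.26e-10), HSPA1L by 3.51 ± 0.377 (adjusted p = 4.07e-06) and BAG3 by 3.00 ± 0.0924 (adjusted p = 4.45e-12). DNAJB1 was higher by 2.66 ± 0.0954 (adjusted p = 3.18e-11) and DNAJB4 by 2.16 ± 0.176 (adjusted p = 2.4e-07). HSPA2 was the 1 gene lower with CdCl (−0.73), and HSP90AB1 was not called (0.45, adjusted p = 0.0743).

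At 48 h Di moved most of the genes. Of 25, 19 rose and 1 fell, while 21.4% of all genes rose and 25.9% fell, and the median over the 23 genes was 0.74, against −0.02 for all genes. DNAJB4 had 11.41, 11.60 and 11.54 with Di, against 9.53, 9.61 and 9.15 in controls (2.09 ± 0.176, adjusted p = 1.52e-07). BAG3 had 10.69, 10.55 and 10.32, against 8.75, 8.77 and 8.78 (1.75 ± 0.0924, adjusted p = 9.31e-10). HSPH1 had 12.44, 12.28 and 12.15, against 10.54, 10.54 and 10.58 (1.74 ± 0.0856, adjusted p = 4.65e-10). The arrays of these genes did not overlap with the controls. HSPA6 rose with a wide spread, at 3.83, 5.67 and 3.52 with Di, against 2.91, 2.81 and 2.86 (1.48 ± 0.373, adjusted p = 0.00425). CRYAB was the 1 gene that fell, with 10.97, 10.92 and 10.92, against 11.34, 11.36 and 11.45 (−0.45 ± 0.0725, adjusted p = 0.000121). The 2 shared sets of HSPA1A and HSPA1B rose by 2.50 (adjusted p = 4.24e-10) and 2.83 (adjusted p = 5.5e-11), while 19.5% of all probe sets rose and 22.9% fell.

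Set directly against Di at 48 h, CdCl had 6 genes higher and 10 lower of 25, while 23.6% of all genes were higher and 19.0% lower. Of the 6, HSPA6 and HSPA1L passed the filter through the CdCl arrays. Over the 23 genes 4 were higher (17.4%) and 10 lower (43.5%). HSPA6 was higher with CdCl by 2.45 ± 0.373 (adjusted p = 0.000104), HSPA1L by 1.37 ± 0.377 (adjusted p = 0.00889) and CRYAB by 1.13 ± 0.0725 (adjusted p = 2.39e-08). The HSPA1L difference was 1.02 (adjusted p = 0.0512) without the second Di array. DNAJB4 was lower with CdCl (−0.98 ± 0.176, adjusted p = 0.000418), as was CHORDC1 (−0.84 ± 0.2, adjusted p = 0.00352), and HSPA9, HSPA4L, DNAJB6, HSPD1, HSPE1, HSPA4, DNAJA1 and PTGES3 were lower with differences of −0.76 to −0.20. BAG3 (0.12), DNAJB1 (−0.00) and HSPH1 (−0.07) were not called.

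**Figure D3:**
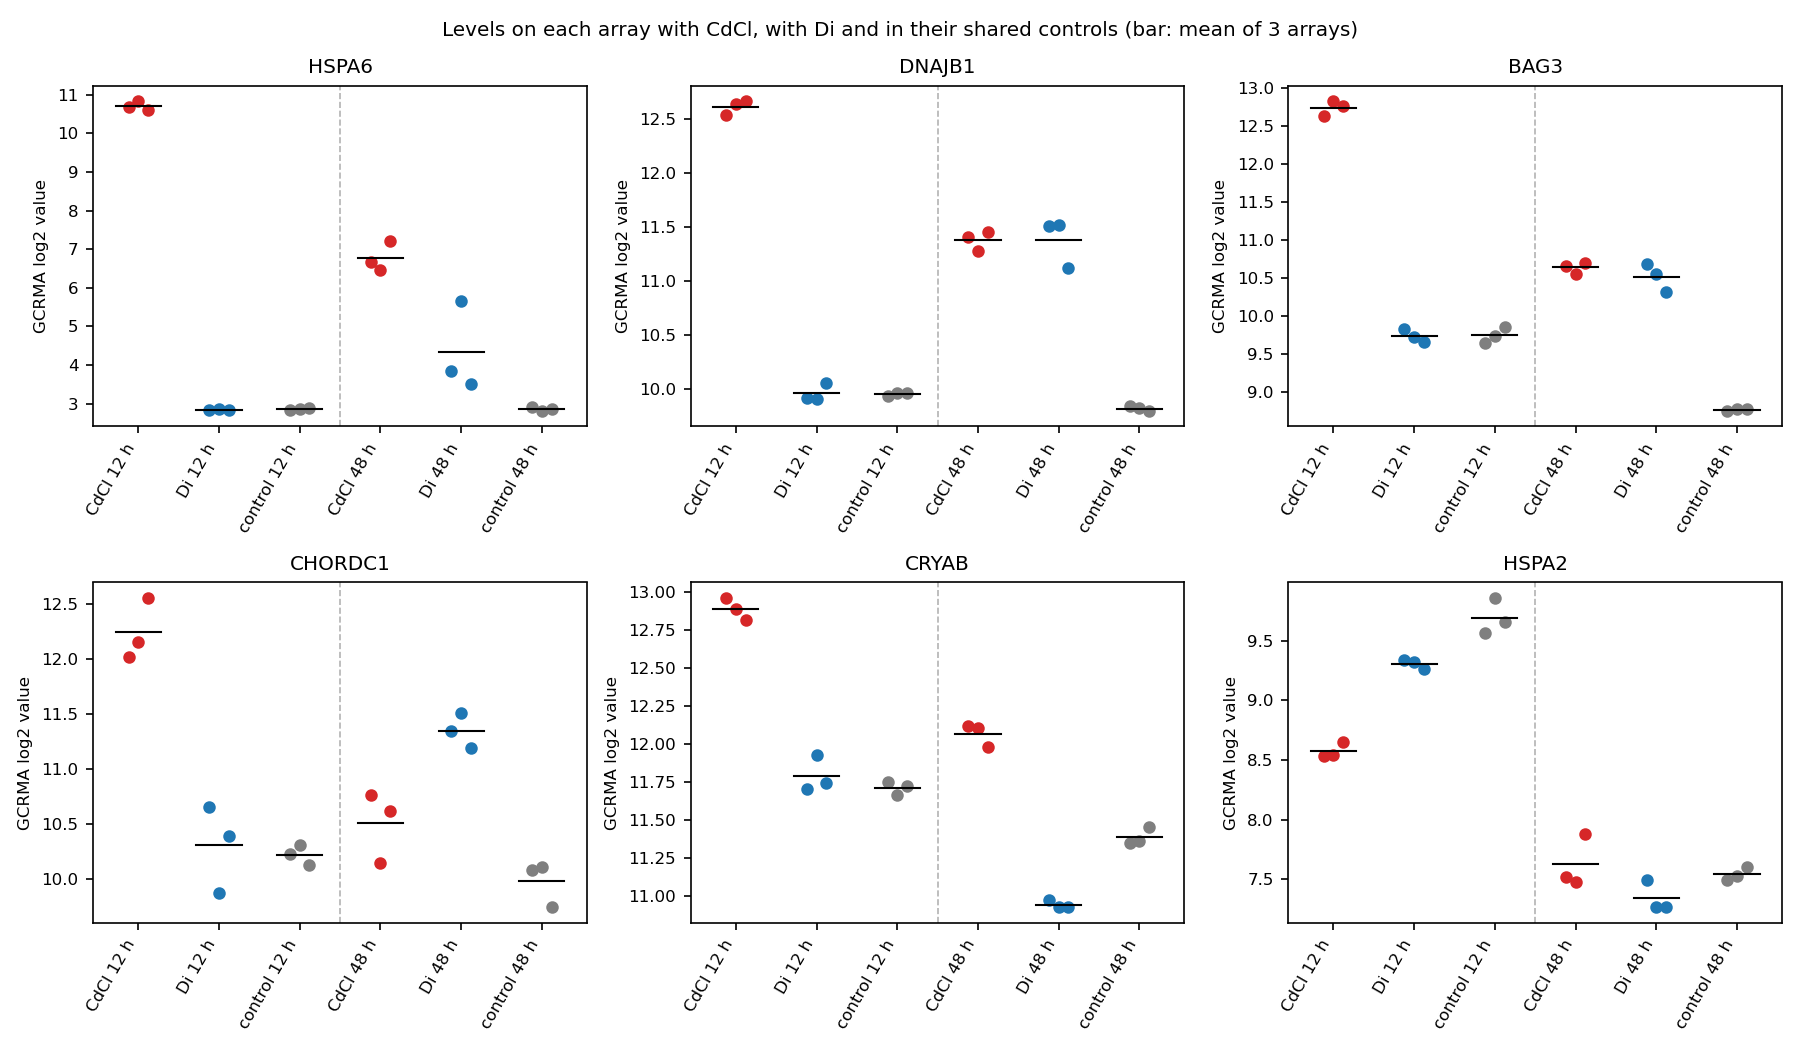
GCRMA log2 values of 6 chaperone genes on every array of CdCl, Di and their shared controls at 12 h and at 48 h; points are arrays and bars are means of 3. HSPA6 lies near 10.7 with CdCl at 12 h and near 2.8 with Di and in controls, while BAG3, DNAJB1 and CHORDC1 are raised with both compounds at 48 h and CRYAB is higher with CdCl but lower with Di than in controls at 48 h.

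Some of these genes rose with Kbr at both doses and both times, with CHORDC1 as the largest rise in each of the 4 groups. At the low dose and 24 h, 6 of 23 genes rose, while 0.671% of all genes rose and 0.689% fell. With the replicate number as a block, which pairs these cultures, 13 rose at that dose and time, and the share of all genes with the block was not counted. None of the 6 passed without the first control array or the second Kbr array. At the high dose and 24 h, 17 rose (8.17% of all genes rose and 13.4% fell), at the low dose and 48 h 15 rose (15.2% rose and 14.3% fell), and at the high dose and 48 h 17 rose and 1 fell (22.2% rose and 28.9% fell). The medians over the 23 genes were 0.45 at the low dose and 0.74 at the high dose at 24 h, and 0.53 and 0.91 at 48 h.

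CHORDC1 at 24 h had 11.05, 11.08 and 11.10 with Kbr high, against 8.92, 9.10 and 9.58 in controls (1.88 ± 0.301, adjusted p = 0.000182). At 48 h it had 8.71, 8.55 and 8.95 in controls, 10.42, 10.18 and 10.76 at the low dose and 11.44, 11.22 and 11.37 at the high dose. The 3 groups did not overlap, and the difference of the high dose from control was 6.1-fold (2.61 ± 0.301, adjusted p = 3.2e-07). HSPH1 had 12.88, 12.85 and 12.97 with Kbr high at 48 h, against 10.65, 10.64 and 10.87 in controls (2.18 ± 0.275, adjusted p = 1.02e-06). BAG3 had 11.12, 10.89 and 11.62, against 9.29, 9.07 and 9.34 (1.98 ± 0.292, adjusted p = 8.14e-06). CRYAB again fell, with 11.14, 11.34 and 11.45, against 12.00, 12.02 and 11.76 (−0.62 ± 0.182, adjusted p = 0.00718). In these genes too no treated array lay within the range of the controls. Further rises with Kbr high at 48 h were 1.85 for DNAJB4, 1.59 for HSPA4, 1.38 for DNAJA1, 1.30 for FKBP4, 1.19 for STIP1 and 0.99 for DNAJB1. For HSPA4 an _at set fell by 0.87 (adjusted p = 0.0312) there while its 3 other sets rose.

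The inducible HSP70 genes were less clear with Kbr. HSPA6 did not reach the filter level in this family. The shared HSPA1A and HSPA1B sets rose at the high dose and 24 h by 1.31 (adjusted p = 0.00727) and 1.77 (adjusted p = 0.0168), while 7.71% of all probe sets rose and 9.40% fell. At 48 h they differed by 0.75 (adjusted p = 0.0618) and 1.09 (adjusted p = 0.076), and with the replicate block these were adjusted p = 0.0219 and 0.00538. The first of them had 12.44, 12.50 and 13.80 on the 3 Kbr arrays, so 1 array lay well above the others. At the low dose neither set was called by limma with the replicate block. They differed there by 0.69 and 0.95 at 24 h and by −0.40 and 0.00 at 48 h.

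CdCl and Kbr high share the 48 h time but neither controls nor matched doses, so compound and control family cannot be told apart. In 1 fit over all arrays of the series, the change with CdCl exceeded that with Kbr high for 3 of 26 genes and was below it for 5, while 17.7% of all 11951 genes were higher and 12.6% lower. Of the 3, HSPA6 and HSPA1L passed the filter through the CdCl arrays, and over the 23 genes 1 was higher and 5 lower. HSPA6 differed by 3.87 ± 0.569 (adjusted p = 1.02e-07), HSPA1L by 2.05 ± 0.319 (adjusted p = 4.11e-07) and CRYAB by 1.30 ± 0.271 (adjusted p = 0.000108), all higher with CdCl. CHORDC1 differed by −2.08 ± 0.479 (adjusted p = 0.00043) and HSPA4 by −1.18 ± 0.173 (adjusted p = 1.03e-07), both lower with CdCl. The HSPA4 value turned to 0.84 (adjusted p = 0.0822) when sets whose names end in _x_at or _s_at were left out. HSP90AB1, HSPA9 and HSPD1 were lower with CdCl, with differences of −0.69, −0.89 and −0.55. BAG3 (−0.10), HSPH1 (−0.51) and DNAJB1 (0.57, adjusted p = 0.314) were not called.

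With Ota at the high dose and 24 h the counts of rises and falls depended on which probe sets were used. At 72 h 14 of 24 genes rose. At 24 h, 9 of 24 genes fell, 3 rose and 12 were not called, while 43.6% of all 11138 genes fell and 21.4% rose, so the share of chaperone genes that fell was not above that of all genes. The median over the 23 genes was −0.24, against −0.29 for all genes. The upper quartile of these arrays, given above, lay below that of their controls, and quantile normalization moved the median of all genes by 0.21. With that normalization 11 chaperone genes were lower and 3 higher, and the shares of all genes with it were not counted. Probe sets whose names end in _x_at or _s_at can match several transcripts. Without them 8 of 13 genes rose and 2 fell, while 23.5% of all genes rose and 41.1% fell. CHORDC1, HSPA2, DNAJB1, STIP1, SERPINH1 and HSPE1, which fell in the main fit, had no tested set of their own left there. The list of genes therefore changed along with the probe sets.

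CHORDC1 had 5.98, 4.0 and 6.20 with Ota high at 24 h, against 8.82, 8.55 and 9.07 in controls, a 10.7-fold lower level (−3.42 ± 0.423, adjusted p = 3.9e-06). HSPA2 had 6.91, 6.34 and 7.18, against 9.63, 9.55 and 9.56 (−2.77 ± 0.232, adjusted p = 5.8e-08). DNAJB1 had 7.53, 5.87 and 7.77, against 9.66, 9.59 and 9.58 (−2.55 ± 0.323, adjusted p = 5.04e-06). In all of them the second Ota array was the lowest, and every Ota array lay below every control. STIP1 had 8.91, 9.27 and 8.99, against 10.85, 10.82 and 10.53 (−1.67 ± 0.143, adjusted p = 7.26e-08). The 5 other genes that fell were SERPINH1 with a difference of −1.53, HSPA4L with −1.46, HSPE1 with −0.52, CRYAB with −0.48 and HSPA4 with −0.27. The brighter shared HSPA1A and HSPA1B set fell as well, with 9.66, 9.05 and 10.37, against 12.19, 11.87 and 12.19 (−2.39, adjusted p = 9.59e-07). So did all 4 HSPA8 sets (−1.77 to −1.37), of which the brightest had 13.51, 13.35 and 13.86, against 15.03, 14.78 and 15.02 (−1.37, adjusted p = 1.73e-06), while 36.8% of all probe sets fell and 25.0% rose.

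The genes that rose at 24 h were DNAJB6, DNAJB4 and HSP90AB1. DNAJB6 had 9.33, 8.42 and 9.88 with Ota high, against 8.38, 8.06 and 8.15 in controls (1.02 ± 0.264, adjusted p = 0.00324). DNAJB4 had 9.68, 9.38 and 9.35, against 8.48, 8.60 and 8.51 (0.94 ± 0.14, adjusted p = 2.51e-05). HSP90AB1 had 13.75, 13.62 and 14.03, against 13.37, 13.10 and 13.41 (0.51 ± 0.134, adjusted p = 0.00353). BAG3, which rose with CdCl, Di and Kbr high, had 9.62, 9.24 and 9.95, against 9.56, 9.63 and 9.59, and its groups overlapped (0.01).

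Single genes also differed by probe set at 24 h. With all probe sets of each gene averaged, 7 rose and 11 fell of 23, and the share of all genes with averaged sets was not counted. HSPA4 rose by 2.99 (adjusted p = 8.07e-08) in a probe set with the suffix _at and fell by 0.29 (adjusted p = 0.0359) in one with the suffix _s_at. HSPH1 rose by 2.85 in an _at set and differed by 0.15 in the set used here. HSPD1 rose by 2.90 in an _at set and differed by 0.10 in the set used here. These _at sets were much dimmer. Their mean log2 value over all arrays was 6.72 for HSPA4, 6.82 for HSPH1 and at most 6.27 for HSPD1. The sets used here averaged 11.97, 11.22 and 14.56. A probe set carrying the symbols CHORDC1 and NAALAD2 rose by 4.02 while the CHORDC1 set fell by 3.42, and one carrying TMEM135 and DNAJB6 fell by 3.00 while the DNAJB6 set rose. DNAJB1 fell in both of its sets (−2.55 and −2.95), as did STIP1 (−1.67 and −1.76). Of the 48 tested probe sets of 1 member symbol, 12 rose and 13 fell with Ota high at 24 h. Of all probe sets 25.0% rose and 36.8% fell there, so neither share of the member sets was above that of all sets. With CdCl at 12 h 46 of 50 rose and 1 fell, while 16.6% of all probe sets rose and 25.7% fell. The 50 include sets of HSPA6 and HSPA1L, which passed the filter through the CdCl arrays and had to differ. Several sets of 1 gene are also not independent of each other. No member had sets called in opposite directions with CdCl at 12 h, and HSPA4 was the 1 member with such sets with Ota high at 24 h, as it was with Di and Kbr high at 48 h and with Ota low at both times.

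**Figure D4:**
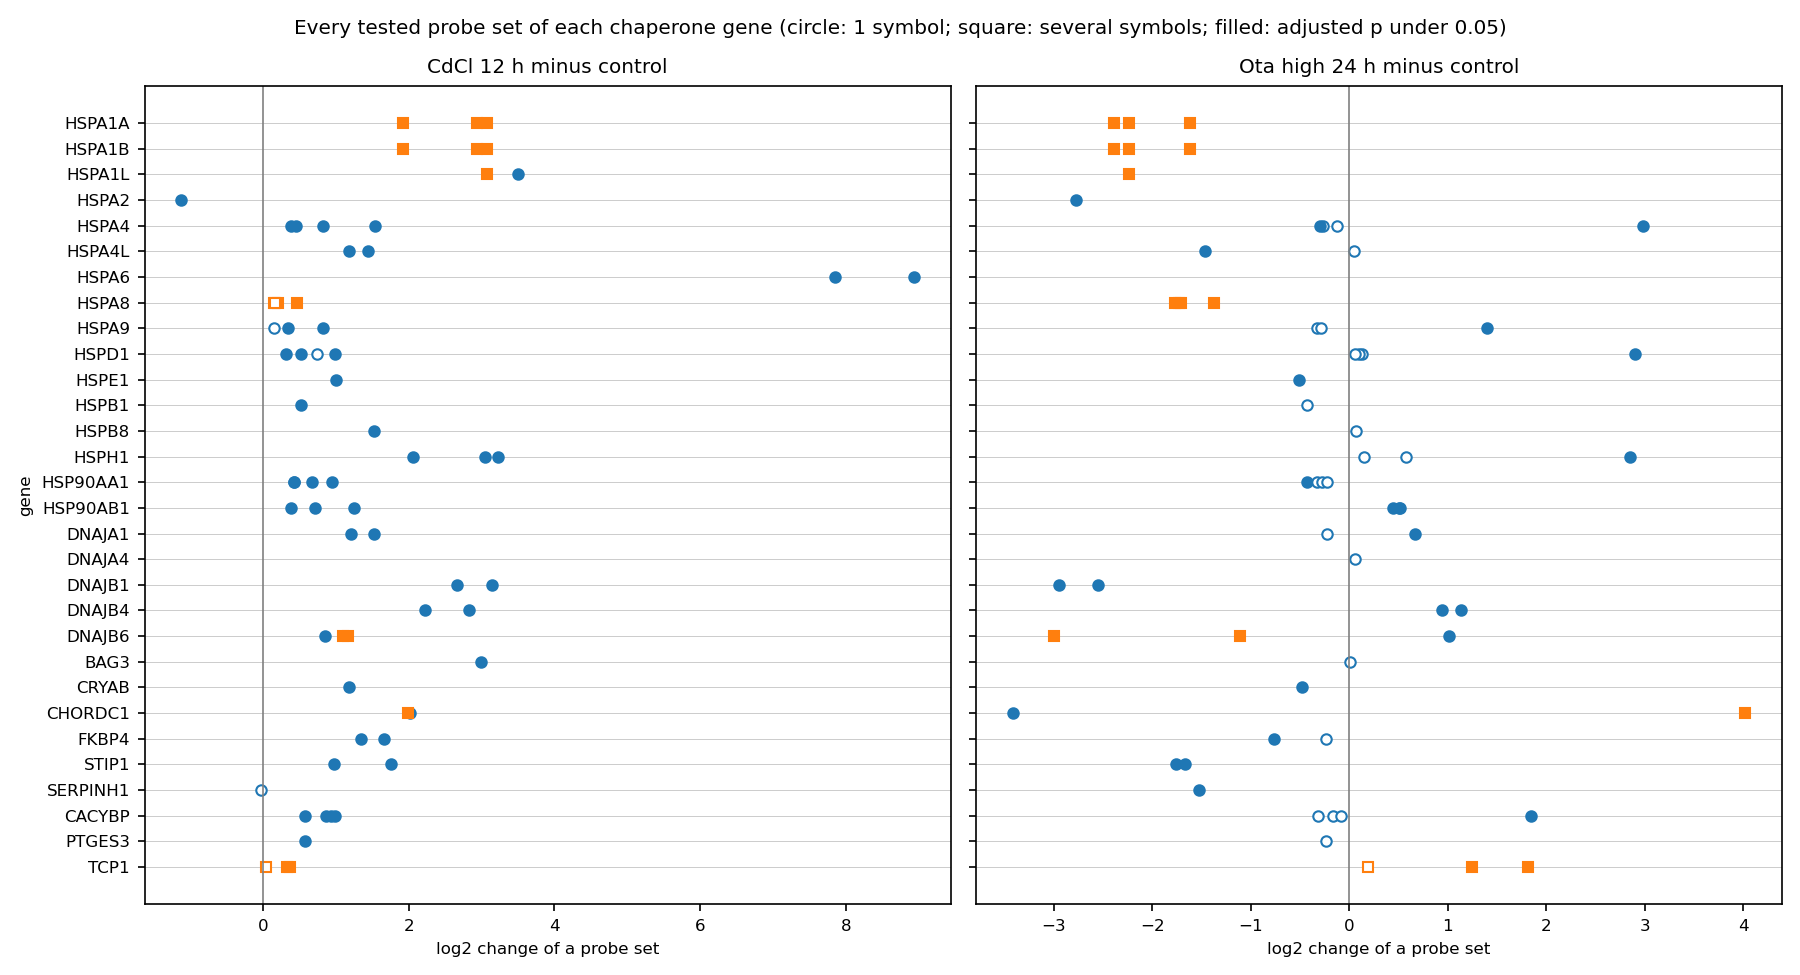
Log2 change of every tested probe set of each chaperone gene with CdCl at 12 h (left) and with Ota high at 24 h (right); circles carry 1 gene symbol, squares several, and filled markers have adjusted p under 0.05. With CdCl nearly all sets lie right of 0 and HSPA6 reaches 7.85 and 8.94, while with Ota the sets of HSPA4, HSPH1, CHORDC1 and DNAJB6 spread to both sides or far apart.

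At 72 h with the high dose of Ota, 14 of 24 genes rose and 2 fell, while 25.3% of all genes rose and 37.9% fell. The median over the 23 genes was 0.70, against −0.15 for all genes. The 3′ to 5′ ACTB difference averaged 1.93 with Ota high at 72 h and 1.36 in controls, and its part was not tested. DNAJB6 had 11.17, 10.79 and 11.12 with Ota high, against 8.67, 8.33 and 8.43 in controls, a 5.85-fold difference (2.55 ± 0.264, adjusted p = 6.52e-07). BAG3 had 11.55, 11.11 and 10.92, against 9.26, 9.23 and 8.95 (2.05 ± 0.202, adjusted p = 3.83e-07). HSPH1 had 12.67, 12.54 and 12.44, against 10.56, 10.64 and 10.32 (2.04 ± 0.265, adjusted p = 7.03e-06). Every array with Ota high was above every control in these 3 genes. CRYAB fell, with 9.46, 9.53 and 10.01, against 10.78, 10.64 and 11.00 (−1.14 ± 0.194, adjusted p = 0.0001). DNAJB1 had 8.99, 9.11 and 8.94, against 9.87, 10.00 and 9.78 (−0.87 ± 0.323, adjusted p = 0.0283), but its adjusted p was 0.0589 to 0.0757 without either of 2 control or 2 Ota arrays. It was thus lower with Ota high while its relative DNAJB4 rose by 0.59 and DNAJA1 by 1.92. Also raised were HSPB8 by 1.60, HSPA4 by 1.59, STIP1 by 1.33, HSPE1 by 1.30, CACYBP by 1.29 and HSP90AB1 by 1.05.

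The log2 change with Ota high was higher at 72 h than at 24 h for 19 of 24 genes, with no limma call in the other direction and 1 there at an unadjusted p under 0.05, while 32.7% of all genes were higher and 20.6% lower. Quantile normalization moved the median of all genes by −0.16 here and gave 19 genes higher and 2 lower, with the shares of all genes not counted. Without _x_at and _s_at sets, 6 of 13 genes were called higher, while 31.3% of all genes were higher and 19.0% lower. CHORDC1 differed by 3.60 ± 0.599 (adjusted p = 0.000145), its arrays at 72 h lying at 9.37, 8.32 and 9.37, against 8.81, 8.81 and 8.89 in controls. STIP1 differed by 3.00 ± 0.202 (adjusted p = 6.59e-08), HSPA2 by 2.91 ± 0.328 (adjusted p = 4.4e-06), DNAJA1 by 2.14 ± 0.369 (adjusted p = 0.00019) and BAG3 by 2.04 ± 0.285 (adjusted p = 3.16e-05). STIP1 thus fell at 24 h and rose at 72 h, with 11.45, 11.23 and 11.58, against 10.10, 10.09 and 10.08.

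The low dose of Ota moved few of the genes. At 24 h, 2 rose and 1 fell of 24 (3.72% and 9.99% of all genes), and without _x_at and _s_at sets 6 of 13 rose (7.58% and 9.49%). At 72 h, 5 rose and 1 fell (9.01% and 7.02%). DNAJB6 had 9.56, 9.66 and 9.32 with Ota low at 24 h, above all controls (1.32, adjusted p = 0.00353), and CRYAB rose by 0.95 (adjusted p = 0.0035) at 72 h, opposite to its fall at the high dose. CHORDC1 differed by −1.13 (adjusted p = 0.0908) at 24 h.

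**Figure D5:**
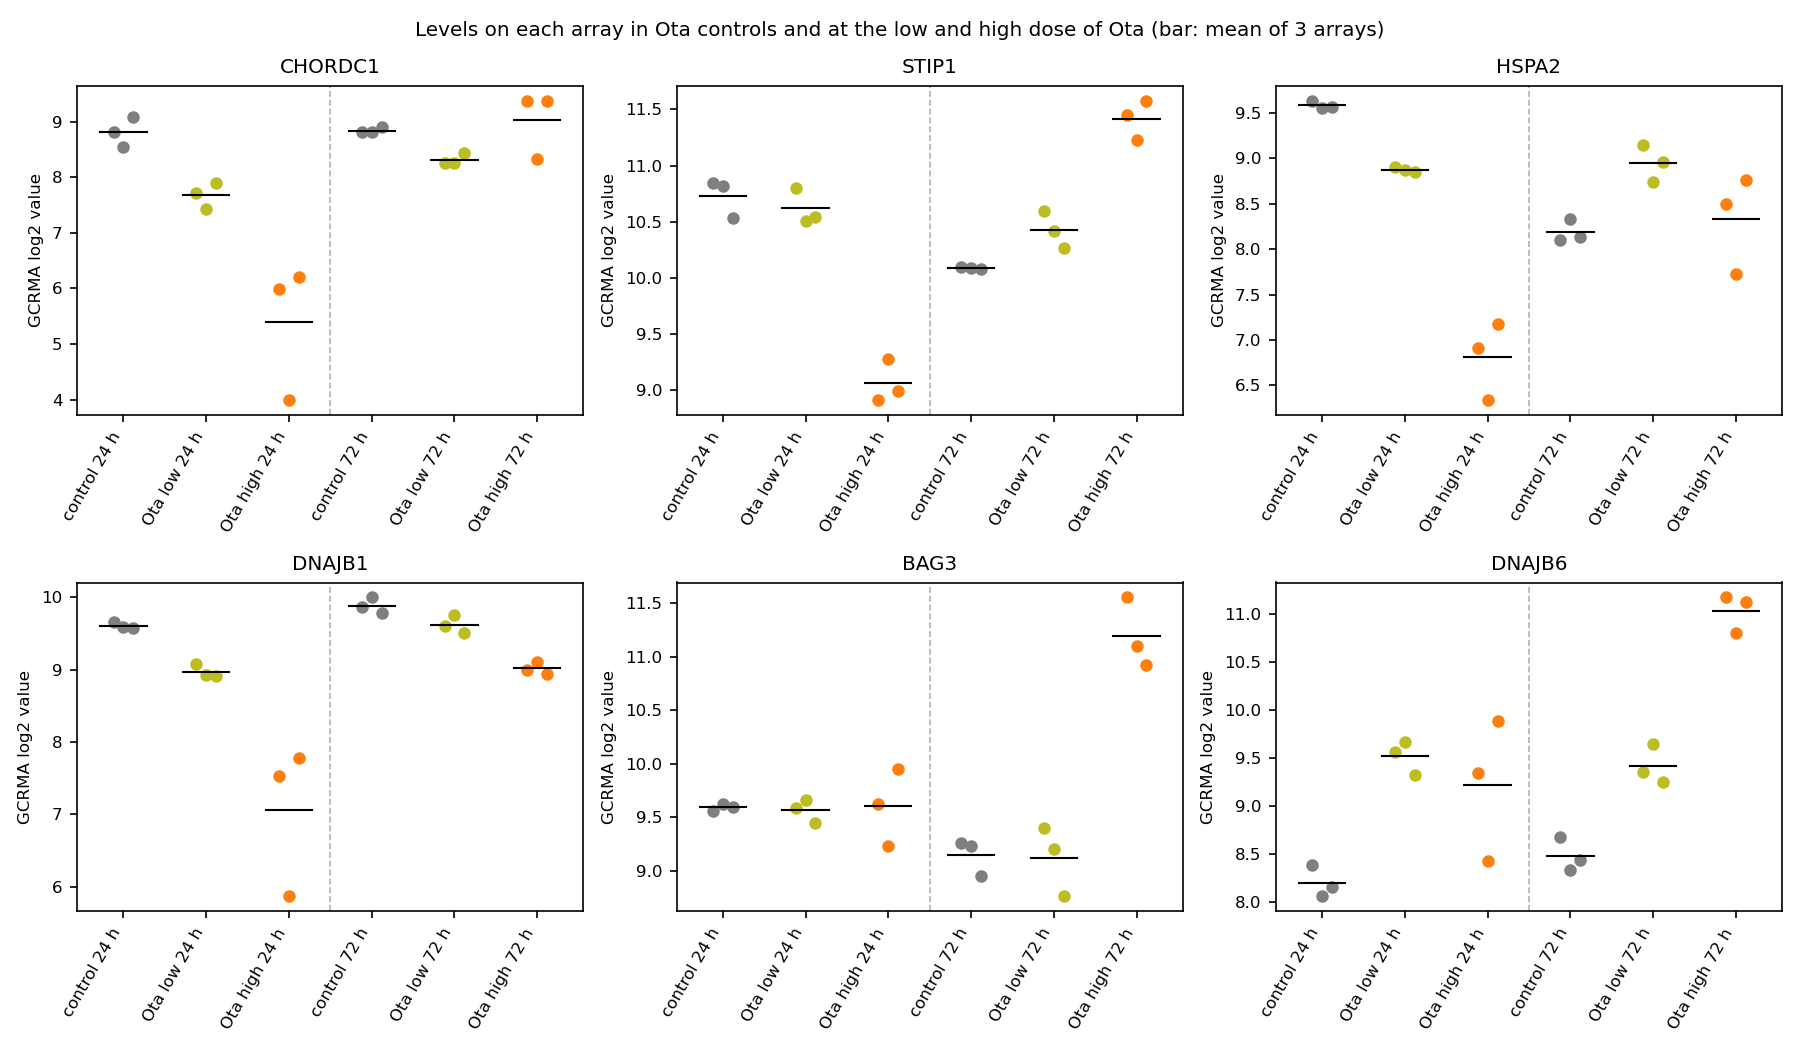
GCRMA log2 values of 6 chaperone genes on every array of the Ota controls, the low dose and the high dose at 24 h and at 72 h; points are arrays and bars are means of 3. At 24 h the high dose arrays of CHORDC1, STIP1, HSPA2 and DNAJB1 lie below all controls and the second is lowest in all but STIP1, while at 72 h BAG3, DNAJB6 and STIP1 lie above all controls.

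Kbr high and Ota high share the 24 h time, again without shared controls or matched doses. The change with Kbr high exceeded that with Ota high for 19 of 26 genes, with no limma call in the other direction and 0 there at an unadjusted p under 0.05, while 32.1% of all genes were higher and 17.3% lower. Quantile normalization moved the median of all genes by −0.10 and left the counts at 19 and 0. CHORDC1 differed by 5.30 ± 0.479 (adjusted p = 2.54e-16), DNAJB1 by 3.62 ± 0.413 (adjusted p = 4.07e-12) and HSPA2 by 2.54 ± 0.389 (adjusted p = 4.7e-08). STIP1 differed by 2.52 ± 0.272 (adjusted p = 4.56e-13) and HSPA4L by 1.92 ± 0.362 (adjusted p = 5.63e-06). Without _x_at and _s_at sets, 4 of 15 genes were higher and 3 lower with Kbr high (29.2% and 18.5% of all genes).

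In the remaining 14 treated groups, 56 of 322 tests of the 23 genes were called, 38 higher and 18 lower. The shares of all genes are given by group here and below. With the replicate block, which pairs the Aa, Nnm and CsA cultures but not those of Fk and Ra, 50 were higher and 33 lower. With it 8 rose and 7 fell with Aa high at 24 h, and 13 rose and 5 fell at 48 h. The shares of all genes with the block were not counted. With Aa, 6 rose and 5 fell at the high dose and 24 h (26.0% and 23.9% of all genes), and 11 rose and 2 fell at the high dose and 48 h (29.8% and 34.5%). At the low dose of Aa, 1 rose and 3 fell at 24 h (10.2% and 13.0%), and 8 rose and 1 fell at 48 h (17.7% and 19.3%). With Nnm, 6 rose and 3 fell at the high dose and 24 h (17.6% and 18.4%), and 5 rose at the high dose and 48 h (15.4% and 12.3%). At the low dose of Nnm, 1 rose and 3 fell at 24 h (9.39% and 9.13%). By limma's adjusted test none changed at 48 h (8.39% and 5.73%), where 1 had an unadjusted p under 0.05 and 2 were called with the replicate block. With that block the 2 shared HSPA1A and HSPA1B sets rose with Nnm high at 24 h by 0.78 and 1.21 (adjusted p = 0.0238 and 0.00443). At 48 h they rose by 1.08 and 1.62 (adjusted p = 0.00424 and 0.000704). With Nnm low only the dimmer set was called, by 0.85 at 24 h (adjusted p = 0.0472) and 1.12 at 48 h (adjusted p = 0.0141). The share of all probe sets called with the block was not counted.

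DNAJB6 rose in 7 of these 14 groups, all of them with Aa or Nnm. It had 10.28, 10.23 and 9.93 with Aa high at 48 h, against 8.57, 8.46 and 8.17 in controls (1.75 ± 0.19, adjusted p = 1.42e-06). With Nnm high at 24 h it had 11.46, 9.27 and 11.45, against 8.56, 8.47 and 8.26 (2.29 ± 0.444, adjusted p = 0.000715), and the second array was nearest to the controls. Over the whole series DNAJB6 rose in 14 of 26 groups, DNAJA1 rose in 13, BAG3, DNAJB4 and CACYBP each in 11, HSP90AA1 in 10, and HSPB8, HSPE1 and FKBP4 each in 9. HSPA4 rose in 8 groups and fell in 7 by the _x_at set used here, and had sets called in opposite directions in 5 of the 12 groups of CdCl, Di, Kbr and Ota, CRYAB rose in 3 and fell in 5, and SERPINH1 fell in 4. HSPB1 was called higher in 2 of 26 groups, both with CdCl, and its change with CdCl at 48 h differed from that with Kbr high by 0.01 (adjusted p = 0.992). With Aa high at 48 h the other large changes were CHORDC1 by 1.43, HSPA2 by 1.26 and FKBP4 by 1.22.

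CsA, Fk and Ra gave few calls among these genes. In the CsA, Fk and Ra groups at 12 and 48 h 0 of 23 genes were called by limma in 5 of 6 comparisons, where 0, 2, 2, 1 and 1 genes had an unadjusted p under 0.05 with CsA at 12 h, CsA at 48 h, Fk at 12 h, Fk at 48 h and Ra at 12 h. Of all genes 0.00925% rose with CsA at 48 h, 0.00918% with Fk at 12 h and 0.0367% with Ra at 12 h, and 0% in the other two. With the replicate block, which pairs the CsA cultures, 3 genes were called with CsA at 48 h. The shares above are without the block, and the share of all genes with it was not counted. With Ra at 48 h HSPB8 fell (−0.93 ± 0.184, adjusted p = 0.0142) and no other was called, while 1.87% of all genes rose and 7.46% fell, and 1 of these arrays was the dim one. Quantile normalization moved the median of all genes by 0.20 there and gave 2 genes higher and 1 lower, with the shares of all genes not counted. The brighter shared set of HSPA1A and HSPA1B had 11.99, 12.84 and 11.00 on the Ra 48 h arrays (1.23, adjusted p = 0.0421).

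Of 59 other genes of chaperone pathways, 48 were tested in the CdCl and Di family. With CdCl at 12 h 18 rose and 6 fell, while 14.5% of all genes rose and 34.3% fell. HSF1, the heat shock transcription factor itself, had 6.04, 6.14 and 6.06 with CdCl, against 6.52, 6.42 and 6.54 in controls (−0.41 ± 0.0776, adjusted p = 0.000509). DNAJB2, a J-domain protein known from neurons, had 7.34, 7.39 and 7.60, against 5.84, 6.00 and 5.34 (1.72, adjusted p = 5.1e-06), and SQSTM1, the autophagy receptor p62, rose by 1.12. FKBP5, a glucocorticoid-induced relative of FKBP4, fell by 1.20 with 10.75, 10.86 and 10.40, against 11.88, 11.87 and 11.87. Smaller rises were PFDN2 of prefoldin by 0.90, PPID by 0.65, GRPEL1, the exchange factor of mitochondrial HSP70, by 0.57, and BAG2 by 0.52, while the mitochondrial protease HTRA2 fell by 0.65 and BAG5 fell by 0.38.

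The CCT subunits, which with TCP1 form the ring that folds actin and tubulin, were counted in the same fits. Of 7 tested, 7 rose with Kbr high at 48 h (median 0.78, while 22.2% of all genes rose) and 7 with Ota high at 72 h (median 1.04, while 25.3% rose). With CdCl 4 rose at 12 h (14.5% of all genes) and 3 at 48 h (22.9%), and with Di 4 rose at 48 h (21.4%). With Ota high at 24 h 1 rose and 2 fell (21.4% and 43.6%). In the test of the difference at 48 h, the change with CdCl was below that with Kbr high for 6 of the 7 (12.6% of all genes), with the limit on compound and control family given above. The set shared by TCP1 and SNORA29 and shown in the heatmap rose by 1.02 with Kbr high at 48 h and 1.06 with Ota high at 72 h, and by 0.34 with CdCl at 12 h. Over all lists, of 48 tested genes 21 rose and 7 fell with CdCl at 48 h (22.9% and 23.5% of all genes), 22 and 7 with Di at 48 h (21.4% and 25.9%), and 27 and 6 with Kbr high at 48 h (22.2% and 28.9%). Of 49 tested in the Ota family, 10 rose and 21 fell with Ota high at 24 h, shares near the 21.4% and 43.6% of all genes, and 25 and 14 at 72 h (25.3% and 37.9%).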

How the data were processed

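Total RNA was read on Affymetrix arrays, 114 in all. GCRMA is the summary method named in the submitters' processing notes, and per the series' design text all data were normalized together. The deposited table holds 1 log2 value for each of 54675 probe sets on each array, and these log2 values were used as the authors deposited them. Of the probe sets, 41091 carry 1 gene symbol, 1801 several and 11721 none in the platform annotation. Where a gene had several single-symbol probe sets, the one brightest on average was used.

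Group means were fitted with limma 3.58.1 in R 4.3.3 (lmFit and eBayes), 1 fit for each of the 6 sets of compounds that share controls. Genes with a log2 value above 4 on at least 3 arrays of the fit were tested, and a two-sided p adjusted by Benjamini-Hochberg over all of them was called under 0.05. Members with shared probe sets alone were read from a fit over all probe sets, added after the data were seen. Comparisons across control families used all arrays. The number of arrays limits the precision, and the SE comes from the moderated spread of the whole fit. The members, lists and tests were chosen with earlier results of these data known. Values by array are given for the 15 members with the largest change of at least 1 log2 unit with CdCl at 12 h and for the 3 largest called members each way in the other main comparisons. Each difference of responses is given by its 5 largest called members, and other members were chosen to fill in the roles.

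Replicate numbers were checked as pairs by the correlation of residuals of same-numbered treated and control arrays. Every pair exceeded 0.1 in CsA (0.534 to 0.931 over 6 pairs), Aa (0.28 to 0.537 over 12) and Nnm with Kbr (0.139 to 0.673 over 24). This did not hold in Ota (−0.0542 to 0.409), Fk with Ra (−0.176 to 0.76) or CdCl with Di (−0.274 to 0.16), over 12 pairs each. The alternatives were no filter, the mean of all probe sets, no _x_at or _s_at sets, quantile normalization, only the arrays of a contrast, a replicate block and leaving out each array. The procedure was tested on simulated data. Promoter windows came from RefSeq, and tables and figures from Python 3.11.15 with pandas 2.3.3 and matplotlib 3.10.9.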

Additional observations from a re-analysis of the deposited data

Results flagged for a closer look

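The following differences between compounds or times were called by limma in the test of the difference itself, in log2 units, for the 5 largest members of each. Between CdCl and Di at 12 h they were 7.87 for HSPA6, 3.51 for HSPA1L, 3.00 for BAG3, 2.66 for DNAJB1 and 2.16 for DNAJB4. At 48 h they were 2.45 for HSPA6, 1.37 for HSPA1L, 1.13 for CRYAB, −0.98 for DNAJB4 and −0.84 for CHORDC1. HSPA6 and HSPA1L passed the filter through the CdCl arrays, so their differences here and below are no independent support.

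Between the response to CdCl at 48 h and at 12 h they were −3.92 for HSPA6, −1.49 for CHORDC1, 1.20 for HSPA2, −1.17 for HSP90AB1 and −1.12 for DNAJB4. Between the responses to CdCl and to Kbr high at 48 h they were 3.87 for HSPA6, −2.08 for CHORDC1, 2.05 for HSPA1L, 1.30 for CRYAB and −1.18 for HSPA4.

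Between the responses to Kbr high and to Ota high at 24 h they were 5.30 for CHORDC1, 3.62 for DNAJB1, 2.54 for HSPA2, 2.52 for STIP1 and 1.92 for HSPA4L. Between the response to Ota high at 72 h and at 24 h they were 3.60 for CHORDC1, 3.00 for STIP1, 2.91 for HSPA2, 2.14 for DNAJA1 and 2.04 for BAG3. The comparisons of CdCl with Kbr and of Kbr with Ota cross control families, whose part in the values cannot be told apart from that of the compound.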

How the results depend on the processing

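Of 1068 repeats of the named members' values under alternatives, 1037 kept direction and side of the threshold, 30 lost the call and 1 reversed. The reversal was HSPA4 in CdCl minus Kbr high at 48 h, which was 0.84 without _x_at and _s_at probe sets. Lost calls were mainly the 3 members called with Di at 12 h, DNAJB1 with Ota high at 72 h and the shared HSPA1A and HSPA1B sets with Kbr high at 24 h. The cause was not tested.

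Without _x_at and _s_at probe sets fewer members were tested. Of 14 tested, 14 were called for CdCl 12 h, 8 for CdCl 48 h and 1 for Di 12 h, all higher. The 14 tested include HSPA6 and HSPA1L, which passed the filter through the CdCl arrays, so their calls with CdCl add no support. For Di 48 h 8 were higher and 2 lower of 14. Also of 14 tested, 12 were higher for CdCl minus Di at 12 h, 4 were higher and 4 lower at 48 h, and 8 were lower for CdCl at 48 h minus 12 h. Of 12 tested, 9 were higher for Kbr high 24 h, 9 were higher and 2 lower for Kbr high 48 h, and 9 were higher for Kbr low 48 h. For Kbr high minus Ota high at 24 h 4 were higher and 3 lower of 15. Of 13 tested, 6 were higher for Ota high at 72 h minus 24 h and 6 for Ota low 24 h. The other 14 groups together had 36 calls in 168 tests. Shares of all genes without these sets are given above for Ota low 24 h and for the differences that involve Ota high, and not for the others listed here. The mean of all probe sets gave 6 for Di 12 h. Fitting the arrays of a contrast alone gave 0 for Di 12 h, 11 for Kbr low 24 h, 7 for Ota low 24 h, 11 for Ota low 72 h and 30 for the other 14 groups. With no filter Ota low 72 h gave 3. The shares of all genes with averaged sets, with the arrays of a contrast alone or with no filter were not counted. Counts listed here without a share show only how the number of calls moved. The replicate block gave 13 for Kbr low 24 h and 5 for Ota low 24 h, where the numbers do not pair, and 83 for the other 14 groups. Among those 14 it gave 3 against 1 for Ra 48 h, where the numbers do not pair, 3 against 0 for CsA 48 h and 2 against 0 for Nnm low 48 h. It changed no other count by more than 1.5 times, and the shares of all genes with the block were not counted.

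Leaving out each array in turn gave 23 to 23 calls for CdCl 12 h, 16 to 20 for CdCl 48 h, 1 to 3 for Di 12 h and 20 to 21 for Di 48 h. It gave 10 to 15 for CdCl at 48 h minus 12 h, 22 to 22 for CdCl minus Di at 12 h, 11 to 15 at 48 h and 7 to 9 for CdCl minus Kbr high. For Kbr it gave 0 to 6 at the low dose and 24 h, 12 to 14 at the low dose and 48 h, 15 to 17 at the high dose and 24 h and 18 to 18 at the high dose and 48 h. For Ota it gave 2 to 3 at the low dose and 24 h, 2 to 4 at the low dose and 72 h, 10 to 13 at the high dose and 24 h and 15 to 17 at the high dose and 72 h. The range was 16 to 20 for Ota high at 72 h minus 24 h, 18 to 19 for Kbr high minus Ota high and 47 to 61 for the other 14 groups. The count of 1 for Di 12 h came without control replicate 2 or 3 or without Di replicate 1. For Kbr low 24 h it was 0 without control replicate 1 or Kbr low replicate 2, 1 without Kbr low replicate 3, and 2 without control replicate 2 or Kbr low replicate 1. For Ota low 72 h it was 2 without control replicate 3 or Ota low replicate 1, and 3 without Ota low replicate 2. Signal near background limits HSPA6 and HSPA1L outside the CdCl arrays.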

Other observations

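HSPA6 was not tested in the family of Fk and Ra because too few arrays passed the filter. Its 3 arrays with Fk at 12 h had log2 values of 3.17, 2.95 and 7.70, against 3.13, 4.25 and 3.46 in the controls, so the third array alone stood apart from the controls. HSPA1L had 4.25, 3.03 and 3.17 with Ota high at 72 h, against 2.48, 2.48 and 2.49 in controls, and was not tested there for the same reason. Both were singled out after their values were seen.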
